A study of Mus musculus with 12 samples.

Results

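The 8 genes described here encode the receptor chains through which T cells sense IL-12, IL-18, interferon-gamma and the type I interferons: Il12rb1 and Il12rb2, Il18r1 and Il18rap, Ifngr1 and Ifngr2, and Ifnar1 and Ifnar2. They were chosen by name from the 547 endogenous genes of a NanoString mouse Immunology code set, and all 8 were found in the table. RNA was counted in 12 samples from a mouse model of cutaneous lupus. The culture samples, 1 Th0, 2 Th1 and 3 Th2, were BALB/c T cells with the transgenic DO11.10 antigen receptor, specific for a peptide of ovalbumin. They were grown for 10 days with antigen-pulsed splenocytes and IL-2. Th1 cultures also received IFNγ and antibody to IL-4, and Th2 cultures received IL-4 with antibodies to IFNγ and IL-12p40, so the ligands of some of these receptors were added or blocked by design. The skin samples were T cells enriched from lesional skin of mice that had been injected with Th2 cells. There were 3 from the first course of disease (mice 1, 3 and 6, about week 4) and 3 from flare (mice 1, 2 and 12, about week 12). Their skin scores were 1, 3 and 3 in the first course and 1, 0.5 and 2 at flare. Recipients were irradiated Ii-TGO mice on doxycycline chow, in which the invariant chain promoter drives a reverse transactivator and thereby an ovalbumin fusion protein in antigen-presenting cells. For flare, the chow was withdrawn so that lesions could heal and was then given again, without a new injection of cells. The labels do not give each recipient's Tlr9 genotype, and do not say whether mouse 1 of the first course and mouse 1 of flare are the same animal. Experiment 1 held Th1 replicate 1, Th2 replicate 1, the 3 first-course samples and flare mice 1 and 2. Experiment 2 held Th0, Th1 replicate 2, Th2 replicates 2 (male) and 3 (female) and flare mouse 12.

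IL-12 binds a receptor of the IL-12Rβ1 and IL-12Rβ2 chains and signals through JAK2, TYK2 and STAT4. IL-12Rβ1 is shared with the IL-23 receptor, whereas IL-12Rβ2 is the chain whose expression is known to be lost in committed Th2 cells. IL-18 binds IL-18Rα, encoded by Il18r1, and recruits the accessory chain encoded by Il18rap to signal through MyD88. IFN-γ binds IFNGR1, and IFNGR2 completes the complex and is needed for signalling. Low IFNGR2 is a known feature of Th1 cells, which make IFN-γ themselves. The type I interferons bind IFNAR1 and IFNAR2, which signal as a pair. In RefSeq's GRCm38.p6 annotation the type I and II interferon receptor genes other than Ifngr1 are neighbours on chromosome 16, in the order Ifnar2, Il10rb, Ifnar1 and Ifngr2. Il18r1 and Il18rap adjoin each other and Il1rl1 on chromosome 1, Il12rb2 adjoins Il23r on chromosome 6, Il12rb1 lies on chromosome 8 and Ifngr1 on chromosome 10.

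The promoters of Il12rb2 and Ifngr2 are shown, because Il12rb2 had the largest change of the 8 between Th1 and Th2 cultures and Ifngr2 differed in all comparisons but that of flare with the first course under the housekeeping scaling. Each run covers 250 bases before and 50 after the annotated start, from RefSeq on GRCm38.p6, and capitals mark motif matches on either strand. The Il12rb2 promoter (chr6:67376139-67376438, minus strand) held 1 match to TTCNNNGAA, the motif of the STAT factors, 123 bases before the start. This motif occurred in 8.33% of 32544 mouse promoters of the same length. The Ifngr2 promoter (chr16:91546809-91547108, plus strand) held 4 matches to the GC box GGGCGG, between 57 and 25 bases before the start, against 35.9% of promoters with at least 1.
Il12rb2: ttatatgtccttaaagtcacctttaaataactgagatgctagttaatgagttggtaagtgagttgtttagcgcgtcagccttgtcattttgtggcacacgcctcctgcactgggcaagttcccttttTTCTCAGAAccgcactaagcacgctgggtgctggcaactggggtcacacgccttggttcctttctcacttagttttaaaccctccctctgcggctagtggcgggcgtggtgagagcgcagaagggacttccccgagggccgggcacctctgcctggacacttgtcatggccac
Ifngr2: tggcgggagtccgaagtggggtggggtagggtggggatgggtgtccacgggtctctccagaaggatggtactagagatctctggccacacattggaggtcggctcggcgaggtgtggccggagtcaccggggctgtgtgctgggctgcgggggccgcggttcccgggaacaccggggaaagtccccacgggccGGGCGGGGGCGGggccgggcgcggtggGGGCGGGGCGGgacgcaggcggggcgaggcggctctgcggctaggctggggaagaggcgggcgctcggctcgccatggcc
No match to AGATAA (the GATA motif), AGGTGTGA (T-box) or the interferon response core motif was found in these windows or in those of the 5 other members that the table covers, and these motifs were present in 11.2%, 1.28% and 3.45% of all promoters. TTCNNNGAA also occurred in the Ifnar1 window, the Ifnar2 window and 1 of the 3 Il18r1 windows, and GGGCGG in those of Ifngr1, Ifnar1 and Ifnar2. A match is a description of the letters only.

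Values below are counts divided by a factor from 7 housekeeping genes, called scaled counts. A sample's detection limit was the mean plus 2 SDs of its 8 negative controls. The endogenous total was 417917 to 481131 counts in cultures and 25925 to 131229 in skin, and 362 to 403 and 163 to 303 genes lay above the limit. The limit was at 3.87 to 8.41 scaled counts in cultures but at 35.7 to 242 in skin, highest in first-course mouse 1, so low transcripts could be seen far less well in skin. Skin samples also carried little of the T cell transcripts that their label implies. Of 8 T cell genes, all were above the limit in every culture, whereas none was above it in all 6 skin samples, and Cd3e, Cd5, Cd27 and Cd28 were below it in every one. Their summed scaled counts were 4530 to 9360 in cultures and 199 to 900 in skin. The 8 myeloid genes on the panel summed to 40.8 to 87.2 in cultures and 2180 to 7310 in skin, with 4 above the limit in all 6 skin samples, and the 4 neutrophil genes to 9.40 to 175 and 587 to 3050. The 4 dendritic genes summed to 38.4 to 307 in cultures and 470 to 1710 in the first course and 1550 to 2250 at flare, and 7 stromal, endothelial and epithelial genes to 116 to 315 and 437 to 1360 in cultures and skin. None of 6 B cell genes and none of 7 CD8 T and NK cell genes was above the limit in any skin sample. The same held for the neutrophil gene Cxcr2, the dendritic gene Xcr1 and the stromal list's Pdgfrb, Vcam1 and Sele. All sums include counts at or below the limit, which weigh more in skin after scaling. Within the cultures, B cell genes summed to 85.6 and 277 scaled counts in the 2 Th1 samples and 359 to 765 in Th2, dendritic genes to 38.4 and 72.0 against 135 to 307, myeloid genes to 40.8 and 55.6 against 72.8 to 87.2, neutrophil genes to 10.3 and 19.3 against 40.7 to 175, and T cell genes to 4530 and 6180 against 7780 to 9360. These 5 sums were thus higher in every Th2 sample than in either Th1 sample. Not every listed gene followed its sum. S100a8 and S100a9 were above the limit in all Th2 and no Th1 samples, whereas Cxcr2 was above it in both Th1 and no Th2 samples. Of the myeloid genes, Csf1r, Cd14 and Emr1 were undetected in these cultures. Fcgr3 was higher in both Th1 samples than in any Th2 sample, and Tyrobp and Fcer1g were lower. The other lists overlapped: CD8 T and NK cell genes at 1410 and 3050 in Th1 against 2280 to 4060 in Th2. Stromal, endothelial and epithelial genes were at 116 and 215 against 208 to 315, and mast and basophil genes at 5.54 and 27.8 against 6.36 to 8.05. The factor that divides the counts was 4.51 and 5.61 in Th1 and 2.61 to 3.15 in Th2, so scaling itself raises Th2 values against Th1. The part of other cells in the culture and skin values below was not tested, and fewer cells of a type and less RNA per cell cannot be told apart. Counts were tested by quasi-likelihood in edgeR, p-values were adjusted over every gene tested, and SE stands for the standard error of a log2 fold change. The samples of a group were cultures or mice, and p-values measure the spread between them. Statements that groups did or did not overlap describe single genes, and the share of all genes without overlap was not counted. Where a left-out sample leaves 1 Th1 culture or flare mouse 12 alone in a group, the spread comes from the other group only, and the lone sample is assumed to vary like it.

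**Figure D1:**
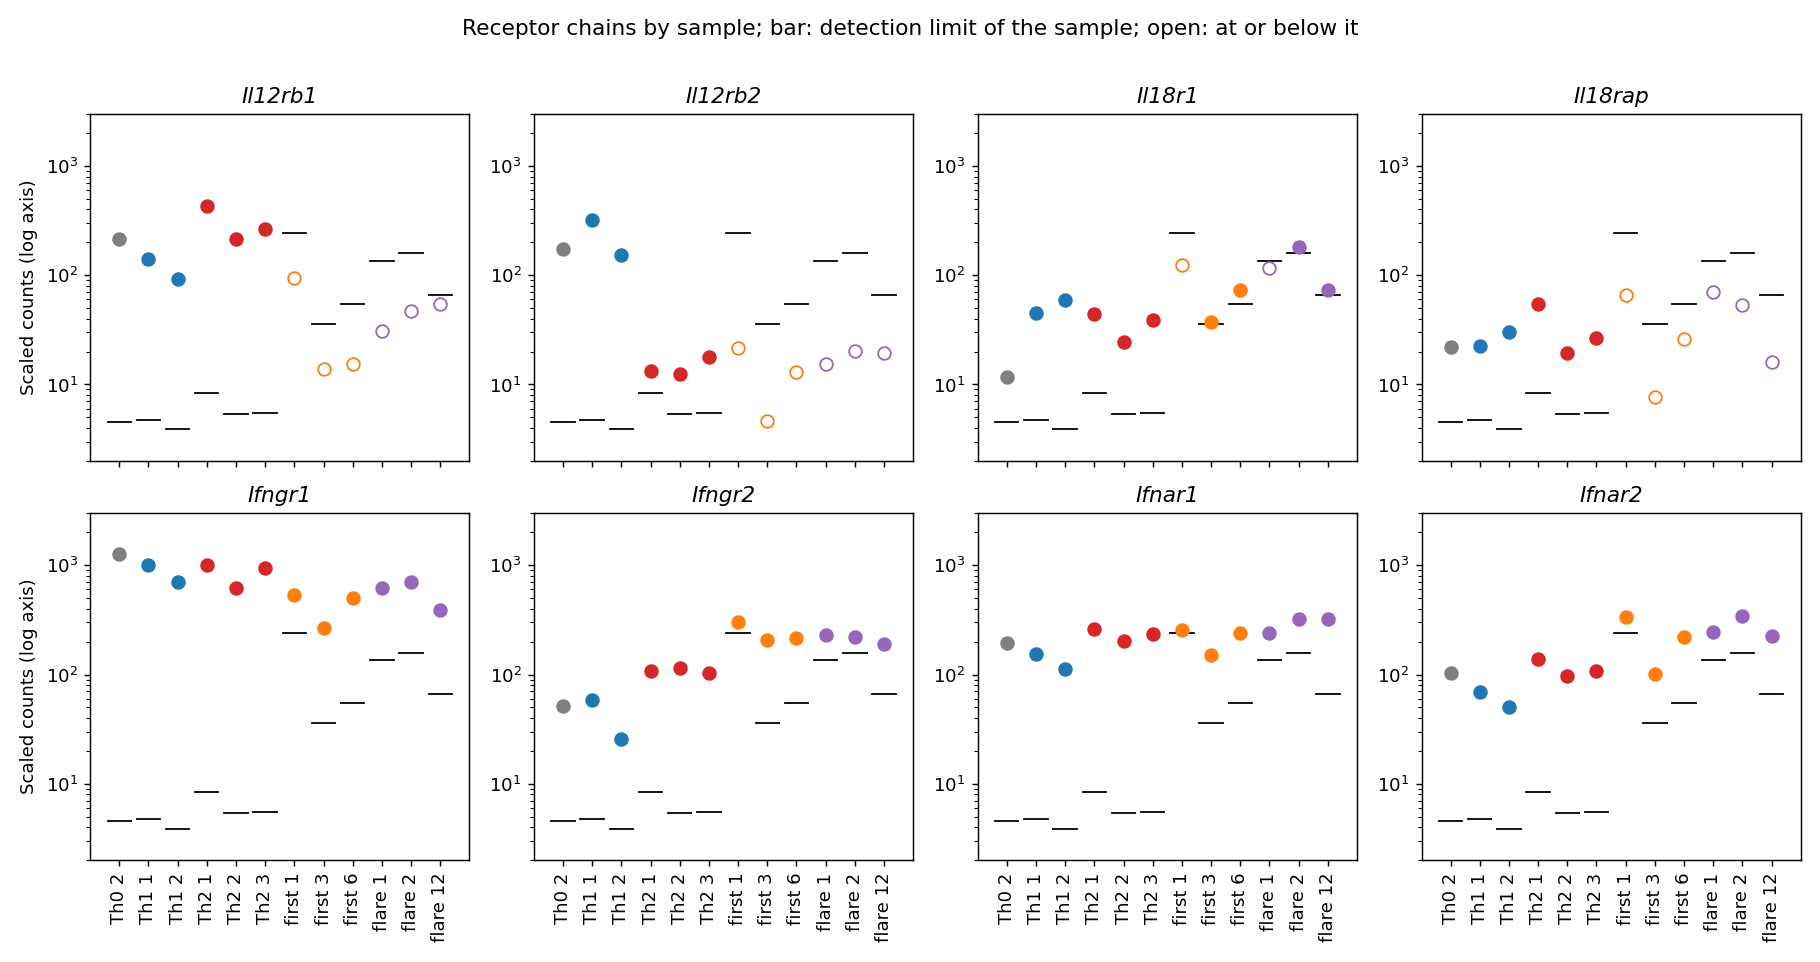
Scaled counts (log axis) of the 8 receptor chain genes in each of the 12 samples, labelled by group and replicate or mouse. The short bar is the sample's detection limit and open points lie at or below it. All 8 genes were above the limit in the 6 cultures, whereas Il12rb1, Il12rb2 and Il18rap were at or below it in all 6 skin samples.

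In cultures, the 2 chains of the IL-12 receptor moved in opposite directions with skewing. Il12rb2, the chain that confers IL-12 signalling, was nearly lost in Th2 cells. It was at 320.2 and 151.6 scaled counts in Th1 replicates 1 and 2, and at 13.4, 12.4 and 17.9 in Th2 replicates 1, 2 and 3. The Th0 culture, at 173.0, lay between the Th1 samples and well above every Th2 sample. Means were 235.9 ± 119.3 (SD, n = 2) in Th1 and 14.6 ± 2.92 (SD, n = 3) in Th2, both above the limit, and the log2 fold change of -4.02 (SE 0.404, edgeR adjusted p = 0.000339) was 4.60 below the median of all genes in this direction, the lowest of 400 tested. Within experiments 1 and 2 the log2 ratio was -4.58 and -3.32, and Il12rb2 was called lower in 18 of 18 alternative settings. Il12rb1, the chain shared with the IL-23 receptor, was instead at 140.2 and 92.6 scaled counts in Th1 and at 429.5, 212.4 and 262.4 in Th2, with Th0 at 214.6. No Th2 sample fell as low as a Th1 sample, in a comparison where 27.2% of all genes tested were called higher. The log2 fold change was 1.37 (SE 0.392, edgeR adjusted p = 0.0277), or 0.79 above the median of all genes. The Il12rb1 call held in 9 of 18 alternative settings. It was lost under the 4 scalings by TMM (0.74, adjusted p = 0.108), DESeq2 factors (0.72), total counts (0.50) and Cd3 genes (0.61). A fit of all 12 samples (1.37, adjusted p = 0.141) and limma after subtraction of the negative controls (1.34, adjusted p = 0.0547) lost it too. So did leaving out Th2 replicate 1 (1.03, adjusted p = 0.0683) or Th2 replicate 3 (1.46, adjusted p = 0.0554). Without Th1 replicate 2, which leaves 1 Th1 culture, the value was 1.10.

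The ratio of the counts of both chains needs no scaling, although its absolute size depends on each probe's efficiency. Il12rb2 over Il12rb1 was 2.28 and 1.64 in Th1, 0.806 in Th0, and 0.0312, 0.0584 and 0.0682 in Th2. The 3 groups did not overlap, and Th2 cells stood apart by more than the spread within either skewed group. With 2 against 3 samples no test of this ratio was made.

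The IL-18 receptor chains changed less between the cultures. Il18r1, the ligand-binding chain, was at 44.8 and 58.8 scaled counts in Th1, at 43.7, 24.5 and 38.8 in Th2 and at 11.7 in Th0. The Th1 samples lay just above the Th2 samples and Th0 below all of them. The log2 fold change in Th2 was -0.54 (95% interval -1.41 to 0.33, adjusted p = 0.303), and it passed only with total counts (-1.48, adjusted p = 0.0423) or Cd3 genes (-1.39, adjusted p = 0.0467) as the scaling. Il18rap, the accessory chain, was at 22.4 and 30.1 in Th1, 54.1, 19.4 and 26.5 in Th2 and 22.1 in Th0, and the groups overlapped. Its log2 fold change was 0.34 (95% interval -0.76 to 1.44, adjusted p = 0.596), with ratios of opposite sign in experiments 1 (1.27) and 2 (-0.39). Il18rap over Il18r1 counts was 1.89 in Th0, 0.500 and 0.512 in Th1 and 1.24, 0.792 and 0.683 in Th2, so that Th1 samples had the lowest ratios of the cultures.

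Of the interferon-gamma receptor, the signalling chain differed between Th1 and Th2 cultures. Ifngr2 was at 58.1 and 25.5 scaled counts in Th1, 108.1, 113.8 and 103.6 in Th2 and 51.8 in Th0. Th0 lay between the 2 Th1 samples, and all Th2 samples above them. The log2 fold change was 1.38 (SE 0.401, edgeR adjusted p = 0.0302), 0.80 above the median of all genes, and its sign held within experiments 1 (0.90) and 2 (2.09). The Ifngr2 call was lost under TMM (0.83, adjusted p = 0.110), DESeq2 factors (0.80), total counts (0.60) and Cd3 genes (0.72), and without Th1 replicate 2 (0.90, adjusted p = 0.107), Th2 replicate 1 (1.38, adjusted p = 0.0657), replicate 2 (1.34, adjusted p = 0.0607) or replicate 3 (1.41, adjusted p = 0.0726). Ifngr1, the ligand-binding chain, was at 1010 and 696.5 scaled counts in Th1, 1012, 620.3 and 943.7 in Th2 and 1268 in Th0. Th1 and Th2 overlapped almost fully, with a log2 fold change of 0.01 (95% interval -0.78 to 0.80, adjusted p = 0.987) that was below 0 in 9 of 18 alternatives. Ifngr1 over Ifngr2 counts was 17.4 and 27.3 in Th1, 24.5 in Th0 and 9.36, 5.45 and 9.11 in Th2, so no Th2 sample reached the ratio of a Th1 or Th0 sample.

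Both type I interferon receptor chains were higher in each Th2 sample than in either Th1 sample, without passing the test. Ifnar1 was at 152.8 and 113.3 scaled counts in Th1, 262.3, 202.5 and 235.9 in Th2 and 195.6 in Th0 (log2 fold change 0.81, 95% interval 0.12 to 1.50, adjusted p = 0.0700). Ifnar2 was at 69.9 and 50.4 in Th1, 139.2, 96.0 and 107.3 in Th2 and 102.6 in Th0 (log2 fold change 0.93, 95% interval 0.18 to 1.67, adjusted p = 0.0600). Both genes passed with the experiment as a block (Ifnar1 0.88, adjusted p = 0.0216, and Ifnar2 1.00, adjusted p = 0.0149), and without Th1 replicate 1 (1.04, adjusted p = 0.0437, and 1.18, adjusted p = 0.0443), where 1 Th1 culture was left and the Th2 samples alone give the spread. With total counts as the scaling they were at -0.05 and 0.06. Their count ratio barely moved in culture, from 1.88 to 2.25 over all 6 samples.

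In all, 2 of the 8 chains were called higher and 1 lower in Th2 against Th1 cultures, beside 27.2% and 4.5% of the 400 genes tested, and the median log2 fold change was 0.58 over the members and 0.58 over all genes. With the block, 4 were called higher and 1 lower, beside 159 and 20 of the 400 genes. The median over all genes was 0.00 with TMM factors, -0.03 with DESeq2 factors and -0.24 with total counts, so the size of these values depends on the reference. Of the listed relatives of these receptors, 5 of 7 tested chains were higher in Th2 and none lower, led by Il1rl1, the IL-33 receptor and neighbour of Il18r1, at 2950 scaled counts in Th2 and 12.3 in Th1 (log2 fold change 7.89, edgeR adjusted p = 8.38e-05). With TMM factors 3 were higher and 1 lower, beside 34 and 31 of the 400 genes. Of 16 known targets tested, Tbx21, the Th1 regulator that IL-12 and interferon-gamma signals induce, was lower (-2.24, adjusted p = 0.00489), as was Ifitm1 (-2.46, adjusted p = 0.0130). Ciita, the regulator of MHC class II genes, was higher (1.69, adjusted p = 0.0416), a call lost with total counts (0.74, adjusted p = 0.414), TMM (1.01, adjusted p = 0.310) and DESeq2 factors. Of 14 signalling genes, only the feedback inhibitors Socs3 (1.74, adjusted p = 0.0461) and Socs1 (1.55, adjusted p = 0.0189) were called, both higher, and neither passed under TMM, DESeq2 or total counts. Of the ligand genes only 3 of 11 could be tested, and Il18 was at least 1.27-fold lower in Th2, where all 3 samples were at or below the limit.

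In skin, the IL-12 receptor chains could not be detected. Il12rb1 counts were 13, 9 and 13 in first-course mice 1, 3 and 6 and 4, 7 and 17 in flare mice 1, 2 and 12, all at or below the limits of 17.4 to 46.3 counts, where the Th2 cultures had 668 to 1120 counts. In scaled counts, the Th2 mean was 301.4 ± 113.7 (SD, n = 3). The means of 41.2 ± 46.1 (SD, n = 3) in the first course and 44.1 ± 12.1 (SD, n = 3) at flare come from undetected counts and are not measured levels. The limit of first-course mouse 1, at 242.1, lay above Th2 replicate 2, at 212.4, so overlap cannot be judged for that mouse. The limits of the other skin samples, 35.7 to 158.9, lay below every Th2 culture. Taken as a bound from the mean limits, mean Il12rb1 was at least 2.72-fold lower in the first course and at least 2.52-fold lower at flare. The fitted changes, not these bounds, were tested (edgeR adjusted p = 0.00475 in the first course and 0.000155 at flare). Without first-course mouse 1, whose limit was the highest, the first-course bound was 6.68. Il12rb1 was called lower in 17 of 17 and 18 of 18 alternatives, TMM and DESeq2 factors included. It passed the filter through the Th2 cultures alone, and every one of these fits used undetected skin counts. The calls therefore add no support beyond the bounds. Against the Th1 cultures, at 116.4 ± 33.6 (SD, n = 2), no firm fold could be given: the bound was 1.01, it fell under 1 without first-course mouse 3 or 6, flare mouse 12 or Th1 replicate 1, and the call (adjusted p = 0.0451) held in 11 of 20 alternatives. It was lost with the block (adjusted p = 0.0691) and without either Th1 replicate, first-course mouse 6 or any flare mouse (adjusted p = 0.0509 to 0.260).

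Il12rb2 counts in skin were 3, 3 and 11 in the first course and 2, 3 and 6 at flare, again at or below every limit. In the Th1 cultures the counts were 1444 and 851. Taken as a bound from the mean limit, the skin mean was at least 2.05-fold below the Th1 mean of 235.9 scaled counts. For the first course alone the bound was 2.13, and for flare 1.97. The limit of first-course mouse 1, at 242.1, lay above the Th1 mean, so that sample alone has no bound. The fitted change was called lower (edgeR adjusted p = 2.61e-05), and the call held in 20 of 20 alternatives. Il12rb2 passed the filter through the Th1 cultures alone, and these fits used undetected skin counts, so they add no support beyond the bound. The bound for skin was 2.62 without first-course mouse 1 and 1.31 without Th1 replicate 1, and that for the first course 5.23 without mouse 1. Against the Th2 cultures, whose mean of 14.6 lay under the skin limits, no fold can be given. Il18rap had 9, 5 and 22 counts in the first course and 9, 8 and 5 at flare, also below every limit and with no fold against either kind of culture. At this depth it cannot be said whether Il12rb2 in skin was at the level of Th2 cultures or between those of Th2 and Th1. Mean Il12rb1 in skin lay below that of Th2 cultures, as given above.

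Il18r1 stood at the edge of detection. It was at 123.4, 37.1 and 73.1 scaled counts in first-course mice 1, 3 and 6, with limits of 242.1, 35.7 and 54.5, and at 115.8, 180.6 and 74.0 in flare mice 1, 2 and 12, with limits of 134.6, 158.9 and 66.0. It was thus above the limit in 4 of 6 skin samples, and in none by far. Its log2 fold change against Th2 cultures was 1.05 in the first course (95% interval -0.22 to 2.33, adjusted p = 0.134) and 1.75 at flare (SE 0.403, edgeR adjusted p = 0.00312). The flare value became -0.03 with TMM factors and -0.20 with DESeq2 factors, and it was not called after subtraction of the negative controls (0.78, adjusted p = 0.198) or with flare mouse 12 alone (1.05, adjusted p = 0.100), a single sample. Without first-course mouse 3, the first-course value was 1.40 and called (adjusted p = 0.0340).

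The 4 interferon receptor chains were above the limit in all 6 skin samples, so their levels could be compared. Ifngr1 was at 529.9, 265.7 and 497.2 scaled counts in first-course mice 1, 3 and 6 and at 625.2, 695.8 and 392.2 in flare mice 1, 2 and 12. The first-course samples lay below all 3 Th2 cultures, whereas the flare samples overlapped them. The log2 fold change against Th2 cultures was -1.00 in the first course (95% interval -1.89 to -0.12, adjusted p = 0.0512) and -0.60 at flare (95% interval -1.31 to 0.11, adjusted p = 0.114). Relative to the median of all genes these were -1.57 and -1.63. Ifngr1 was below 0 in every one of the 17 and 18 alternatives and was called lower in 8 and 5 of them, among these the fit without first-course mouse 1 (-1.17, adjusted p = 0.0194) and, at flare, the one with the experiment as a block (-0.80, adjusted p = 0.0235).

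Ifngr2 was at 304.8, 207.0 and 215.6 scaled counts in the first course and 231.6, 220.8 and 189.7 at flare. Every skin sample lay above every culture, where 37% and 51.6% of all genes tested were called higher than in Th2 cultures in the first course and at flare. The log2 fold change against Th2 cultures was 1.14 in the first course (SE 0.339, edgeR adjusted p = 0.0165) and 0.97 at flare (SE 0.241, adjusted p = 0.00485). Yet relative to the median of all genes these were 0.58 and -0.06, and with TMM factors the values were -0.14 and -0.80. At flare the direction of the call reversed, since Ifngr2 was called lower with TMM (-0.80, adjusted p = 0.0126) and DESeq2 factors (-0.97, adjusted p = 0.00789). The first-course call was lost with the experiment as a block (adjusted p = 0.145), after subtraction of the negative controls (adjusted p = 0.151) and without Th2 replicate 1 (adjusted p = 0.0557), 2 (adjusted p = 0.0630) or 3 (adjusted p = 0.0794). The flare call was lost after that subtraction (0.53, adjusted p = 0.132) and with flare mouse 12 alone (0.81, adjusted p = 0.0604).

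Ifnar1 was at 254.0, 151.4 and 241.5 scaled counts in the first course and 239.3, 321.1 and 324.7 at flare, and overlapped the Th2 cultures in both. Its log2 fold change was -0.13 in the first course (95% interval -0.90 to 0.65, adjusted p = 0.759) and 0.34 at flare (95% interval -0.22 to 0.91, adjusted p = 0.242). It was called lower with TMM and DESeq2 factors, at -1.41 (adjusted p = 0.00218) and -1.45 (adjusted p = 0.00330) in the first course and at -1.39 (adjusted p = 0.00128) and -1.55 (adjusted p = 0.000983) at flare. Ifnar2 was at 333.9, 100.4 and 221.5 in the first course and 247.0, 341.2 and 225.1 at flare. All flare samples were above all Th2 cultures, whereas first-course mouse 3 lay among them. Its log2 fold change was 0.90 in the first course (95% interval -0.16 to 1.96, adjusted p = 0.124) and 1.24 at flare (SE 0.281, edgeR adjusted p = 0.00286), the latter 0.21 above the median of all genes and -0.52 with TMM factors. Without mouse 3 the first-course value was 1.26 and called (adjusted p = 0.0140).

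Because the chains of a receptor are counted in the same sample, their ratio is free of these scaling choices. Ifngr1 over Ifngr2 was 1.74, 1.28 and 2.31 in first-course mice 1, 3 and 6 and 2.70, 3.15 and 2.07 in flare mice 1, 2 and 12, against 5.45 to 9.36 in Th2 cultures. Skin and Th2 did not overlap, and the geometric mean was 2.12 in skin (n = 6) and 7.74 in Th2 (n = 3), a log2 difference of -1.87 (exact two-sided permutation test, p = 0.0238, the smallest that 6 against 3 samples allow). Ifnar1 over Ifnar2 was 0.761, 1.51 and 1.09 in the first course and 0.969, 0.941 and 1.44 at flare, all below the 1.88 to 2.20 of Th2 cultures, with geometric means of 1.09 and 2.06 and a log2 difference of -0.92 (exact two-sided permutation test, p = 0.0238). Both p-values stayed at 0.0238 after adjustment over the 2 ratios. These ratios were chosen for a test after their values, already without overlap, had been seen, so the p-values are descriptive. The test treated the 6 skin samples as independent, although mouse 1 of the first course and of flare may be the same animal. With the mean of the negative controls subtracted the differences were -1.66 and -0.98. With samples exchanged only within an experiment, the experiment being the block, the differences were -1.97 and -0.74 and both p-values 0.0556 (exact two-sided permutation test, 18 arrangements), the smallest that this design allows, so the threshold could not be reached. The order held within each experiment, with Ifngr1 over Ifngr2 at 1.28 to 3.15 in skin against 9.36 in the Th2 culture of experiment 1 and at 2.07 against 5.45 and 9.11 in experiment 2. Without the 3 skin samples of fewer than 30000 counts the differences were -2.08 and -0.63, where 3 against 3 samples allow no p below 0.1. The sums of myeloid, neutrophil, dendritic and stromal genes given above were higher in skin than in Th2 cultures, although not every listed gene was detected there. The part of such cells in the ratios was not tested.

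**Figure D2:**
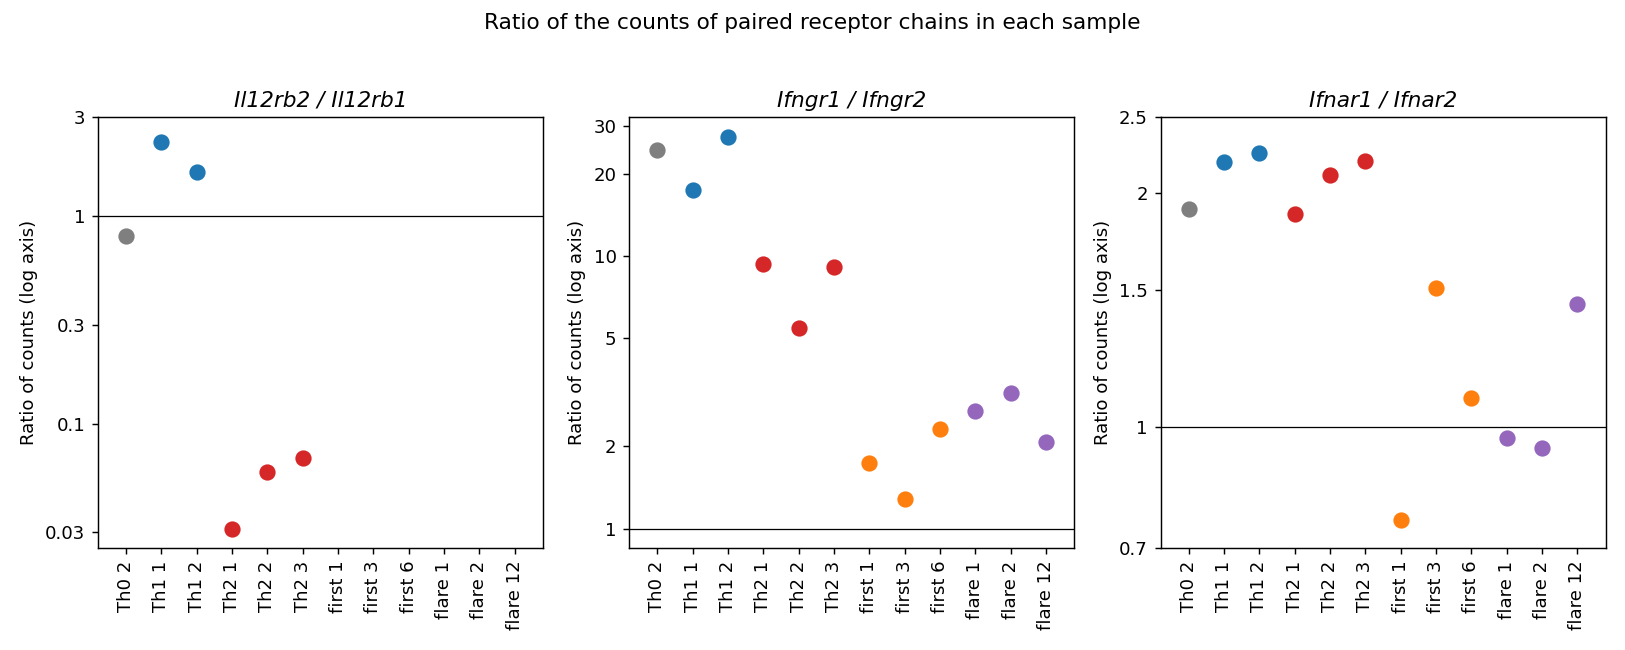
Ratio of raw counts (log axis) of the 2 chains of the IL-12, interferon-gamma and type I interferon receptors in each sample, with a line at 1. Points are drawn only where both chains were above the detection limit, so none stands for Il12rb2 over Il12rb1 in skin. Ifngr1 over Ifngr2 was 17.4 to 27.3 in Th0 and Th1, 5.45 to 9.36 in Th2 and 1.28 to 3.15 in skin.

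Counting all chains, 1 of 8 was called higher and 1 lower in the first course against Th2 cultures, beside 37% and 22.2% of 397 genes, with medians of -0.18 over the members and 0.57 over all genes. With the block, Il12rb1 alone was called, beside 101 of the 397 genes higher and 70 lower. At flare 3 of 8 were called higher and 1 lower, beside 51.6% and 21.6% of 403 genes, with medians of 0.34 and 1.03. Both comparisons share the Th2 cultures. Against Th1 cultures, the 6 skin samples had 2 of 8 chains higher and 2 lower, beside 50.6% and 14.2% of 429 genes, with medians of 0.67 and 1.46. The 2 higher chains were Ifngr2 (log2 fold change 2.44, SE 0.487, edgeR adjusted p = 0.000687) and Ifnar2 (2.01, SE 0.527, adjusted p = 0.00470). With TMM factors these 2 values were 0.37 and -0.26, and neither was called higher, and without Th1 replicate 2 the Ifnar2 call was lost (1.79, adjusted p = 0.0583). The remaining chains were at -0.78 for Ifngr1 (95% interval -1.67 to 0.12), 0.93 for Ifnar1 (95% interval 0.02 to 1.85, called at 1.05 without first-course mouse 3) and 0.90 for Il18r1 (95% interval -0.36 to 2.17).

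**Figure D3:**
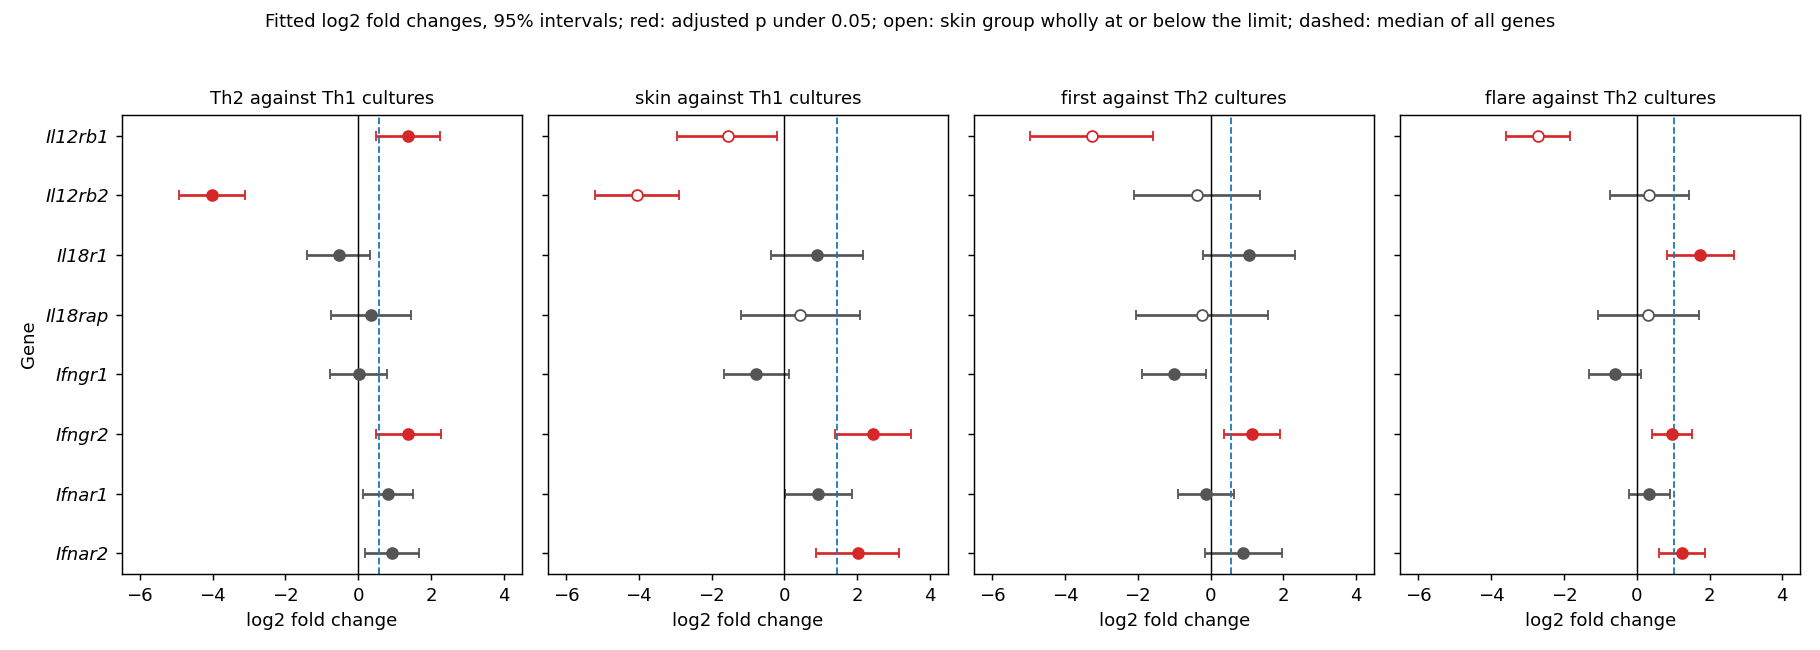
Fitted log2 fold change of each receptor chain with its 95% interval in 4 comparisons, where red marks an adjusted p under 0.05, open points mark genes at or below the limit in all skin samples of the comparison (their fitted values are not bounds), and the dashed line is the median of all genes tested. Il12rb2 in Th2 against Th1 cultures (-4.02) and Il12rb1 in skin against Th2 cultures lie far below that line, whereas Ifngr2 lies close to it in flare against Th2 cultures (0.97 against 1.03).

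**Figure D4:**
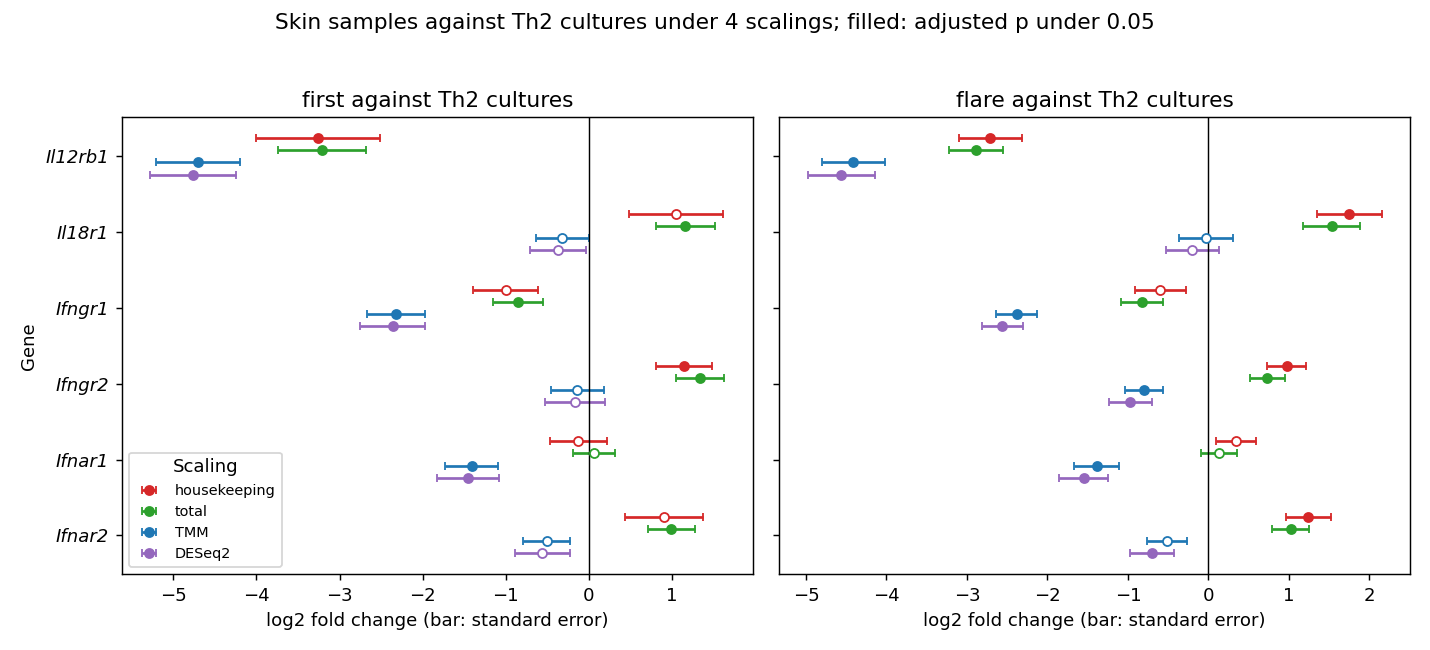
Log2 fold change of 6 receptor chains in first-course and flare samples against Th2 cultures under 4 scalings, with standard errors. Filled points have an adjusted p under 0.05. Il12rb1 and Ifngr1 were below 0 under all 4, whereas Il18r1, Ifngr2 and Ifnar2 were above 0 with housekeeping genes and total counts and below 0 with TMM and DESeq2 factors. All skin counts of Il12rb1 were at or below the limit.

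Between flare and the first course no difference was called. The 5 chains that could be tested had log2 fold changes of 0.73 for Il18r1 (95% interval -0.46 to 1.92), 0.41 for Ifngr1 (-0.53 to 1.34), -0.17 for Ifngr2 (-0.99 to 0.65), 0.47 for Ifnar1 (-0.39 to 1.32) and 0.34 for Ifnar2 (-0.77 to 1.45), and both groups overlapped for each. None of 277 genes was called by edgeR in either direction (0% and 0%), although 28 higher and 2 lower had an unadjusted p under 0.05, and DESeq2's Wald test called 9 higher, none of them a receptor chain. No receptor chain had an unadjusted p under 0.05. All 5 intervals held 0, and the widest reached 1.92.

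Among the listed genes of these pathways in skin, some interferon targets were called higher than in Th2 cultures, in shares near those of the whole panel. In the first course 6 of 17 tested were called higher and none lower, beside 37% and 22.2% of all genes. Cxcl10, a chemokine gene induced by interferons, was at least 32.1-fold higher (adjusted p = 2.57e-05), Cxcl9 at 241 scaled counts against 9.18 in Th2 (log2 fold change 4.66, adjusted p = 0.000326) and Mx1, an antiviral gene of the type I response, at 291 against 22.7 (3.63, adjusted p = 0.00112). At flare 7 of 16 were higher and none lower, beside 51.6% and 21.6% of all genes, led by Mx1 (473 scaled counts, log2 fold change 4.34, adjusted p = 0.000515), Ifih1, an RNA sensor (3.50, adjusted p = 0.000110), and Cxcl9 (3.32, adjusted p = 1.42e-05), which was above the limit in 1 of 3 flare samples. With TMM factors 4 targets were higher and 5 lower in the first course, beside 103 and 178 of 397 genes. At flare 3 were higher and 6 lower, beside 110 and 191 of 403. Cxcl9, Mx1 and Ifih1 stayed higher in both. Of the 14 signalling genes, Socs1, a feedback inhibitor of interferon and cytokine signalling, was lower in the first course (-4.03, adjusted p = 0.000257) and at flare (-4.12, adjusted p = 1.42e-06), and lower with TMM factors as well. Socs1 was above the limit in only 2 of 3 first-course and 1 of 3 flare samples, so these fitted folds are not measured sizes. Il27ra, a relative of Il12rb2 and the receptor of IL-27, was at least 6.42-fold lower in the first course (adjusted p = 0.00229) and at least 5.93-fold lower at flare (adjusted p = 0.000153). Il1rl1 was lower too, at 116 scaled counts in the first course and 163 at flare against 2950 in Th2 (log2 fold change -4.77 and -4.16). It was above the limit in 2 of 3 samples of each skin group. Il6st, the signal transducer gp130, was higher (2.29, adjusted p = 0.00274, and 3.49, adjusted p = 2.51e-05). The first-course Il6st call was lost with TMM (0.97, adjusted p = 0.0519) and DESeq2 factors (0.94, adjusted p = 0.0567). These target and relative genes are also expressed by the cell types whose summed markers were high in skin, and that part was not tested.

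The genes most like 7 of the chains across the 12 samples were found by the root mean square difference of centred log2 scaled counts. Il12rb1 was nearest to Il2rg, the common cytokine receptor gamma chain (0.516, where the median gene was at 2.03), and Il7r (0.567), among 221 genes. Ifnar1 was nearest to its chromosomal neighbour Il10rb (0.213, median 0.954), Ifngr1 to Tap1 (0.264, median 1.25), Ifngr2 to Notch1 (0.403, median 1.03) and Ifnar2 to Tgfbr1 (0.273, median 0.957), each among 220. Il18r1 was nearest to Relb (0.536, median 1.12) and Il18rap to Irgm1 (0.489, median 1.14), but these 2 chains lay at or near the limit in skin, and Il12rb1 at or below it in all 6 skin samples. These distances share the samples' scaling and are descriptions without a test.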

How the data were processed

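The authors deposited raw digital counts per probe from the NanoString nCounter, with no scaling, for 547 endogenous and 14 housekeeping genes, 6 positive and 8 negative controls in 12 samples; the lowest count was 1. The labels and the study's methods name CD3 enrichment for skin, whereas its results text names beads for the transferred cells' antigen receptor (KJ1-26), so which T cells were enriched is unsettled. The members and lists were chosen with earlier results of these data known. Factors came from the geometric mean of Eef1g, G6pdx, Gapdh, Oaz1, Ppia, Rpl19 and Tubb5, the 7 housekeeping genes above the limit (negative control mean plus 2 SDs) in all samples. A gene was tested if it passed the limit in no fewer samples than the size of the smaller group, with edgeR 4.0.16 (R 4.3.3), quasi-likelihood, factors as offsets, only the compared groups in a fit, Benjamini-Hochberg threshold 0.05. The methods name analysis software and t tests, and a count test was used here since the values are counts. Each SE is the absolute log2 fold change divided by the root of edgeR's F. Bounds divide the mean of the detected group by the mean limit of the other. Ratio tests were exact permutation tests over samples. In every test the samples named mouse 1 of the first course and of flare were treated as independent. The named genes are the 8 members, the largest called changes of fixed pathway lists, and the 2 genes nearest to each member, of which some are not reported here. Experiments pair the samples by their labels, and deviations of the experiment 1 samples of Th1 and Th2 correlated at 0.177 over 400 genes. Alternatives used limma 3.58.1 and DESeq2 1.42.0 and other scalings, filters and left-out samples. The pseudocount for log2 values was 1. The test was checked on simulated counts, but no error rate at these group sizes and depths is reported here. Of 547 accessions, 537 matched RefSeq.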

Additional observations from a re-analysis of the deposited data

Results flagged for a closer look

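Ifngr2 in first-course mouse 1, at 304.8 scaled counts, stood far from the other 5 skin samples, which lay between 189.7 and 231.6 (Dixon's gap test over the 6 skin samples). Its detection limit was 242.1 scaled counts. Chance alone gives such a gap in about 1 of 20 groups.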

How the results depend on the processing

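Il12rb2 in Th2 against Th1 cultures ran from -4.81 to -3.38 on the log2 scale and stayed called in 18 of 18 alternatives. Il12rb1 in the first course and at flare against Th2 cultures stayed called in 17 of 17 and 18 of 18, with every skin count at or below the limit. Most changes of direction came with TMM or DESeq2 factors, under which the median of all genes in the skin comparisons was -0.90 to -0.68 instead of 0.57 to 1.46. The cause of these shifts was not tested.

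In Th2 against Th1 cultures, 1 member was called with TMM or DESeq2 factors and 5 with the experiment as replicate block, which pairs samples of an experiment. Ifngr1 was at -0.61 with TMM factors, -0.63 with DESeq2 factors, -0.85 with total counts, -0.75 with Cd3 genes, -0.09 with positive controls and -0.06 without Gapdh. Il18rap was at -0.38, -0.39, -0.63 and -0.54 under the first 4 of these, and Ifnar1 at -0.05 with total counts. With 1 sample left out, Ifngr1 ran from -0.23 to 0.30, Il18rap from -0.20 to 0.61 and the number of members called from 1 to 5.

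In the first course against Th2 cultures, 5 members were called with TMM, DESeq2 or total scaling and 1 with the replicate block. Il18r1 was at -0.32 with TMM and -0.37 with DESeq2 factors, Ifngr2 at -0.14 and -0.17, and Ifnar2 at -0.51 and -0.56. Ifnar1 was at 0.06 with total counts and Il18r1 at -0.59 after subtraction of negative controls. With 1 sample left out, Ifnar1 ran from -0.25 to 0.08 and 1 to 4 members were called.

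At flare against Th2 cultures, 7 members were called with DESeq2 factors, beside 103 genes higher and 204 lower of 403 tested. With TMM and DESeq2 factors Il18r1 was at -0.03 and -0.20, Ifngr2 at -0.80 and -0.97, Ifnar1 at -1.39 and -1.55, and Ifnar2 at -0.52 and -0.70. The replicate block left 5 members called at flare, beside 211 of the 403 genes higher and 95 lower, against 4 members without it.

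In skin against Th1 cultures, Il18r1 was at -1.43 and -1.65 with these factors, Ifnar1 at -1.24 and -1.45, and Ifnar2 at -0.26 and -0.47. Il18r1 was at -0.13 with total counts and -0.54 after subtraction of negative controls. With 1 sample left out, 2 to 5 members were called, 2 of them without Th1 replicate 2.

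In flare against first, TMM and DESeq2 factors gave -0.20 and -0.12 for Ifngr1, -0.13 and -0.04 for Ifnar1, and -0.14 and -0.06 for Ifnar2. With 1 sample left out, Ifngr2 ran from -0.27 to 0.01 and Ifnar2 from -0.02 to 0.74. No member was called in any alternative of this comparison. Without a Th2 sample, the exact test of the chain ratios, at 0.0714, was at the smallest p that 6 against 2 samples allow.

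Scaling by Cd3 genes was not run for skin, where no Cd3 gene lay above the limit in every sample. The scaling without Gapdh, the fits without the 3 skin samples of fewer than 30000 counts and the ratio tests were added after seeing the data. Depth limits the skin values: a gene needed 35.7 to 242 scaled counts to be seen there, so that Il12rb2 and Il18rap at their mean levels in Th2 cultures could not have been detected.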
